A study of Saccharomyces cerevisiae with 18 samples.

Results

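Transcripts of 4-day-old giant colonies of the feral strain BR-RF were compared with those of the smooth strain BR-S, across all genes. The comparison was chosen by its labels and rests on 3 of the 18 two-colour arrays of the series, which measured 5255 of the 5543 *Saccharomyces cerevisiae* genes named on the slides. BR-S is a domesticated strain with smooth colonies that was derived from the wild strain BR-F, which forms structured colonies. BR-RF is 1 structured subclone that was isolated after long static starvation of BR-S, so that the values belong to this clone. No deletion or transgene is named for any of the strains. All colonies were grown on agar with yeast extract and glycerol, and each RNA came from whole colonies. In such bulk RNA fewer cells of a type and less RNA per cell cannot be told apart.

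On array 1 BR-RF was labelled with Cy3 and BR-S with Cy5, array 2 was the dye swap of the same biological replicate, and array 3 was the second biological replicate with BR-RF in Cy3. Every value below is a log2 ratio of BR-RF over BR-S after loess, so that positive values mean more signal in BR-RF. Each array gave 4262 to 5032 genes from 8549 to 10102 usable spots, and duplicate spots of a gene correlated at r = 0.868 to 0.933. Across genes the ratios of the arrays correlated at r = 0.304 (arrays 1 and 2), 0.496 (arrays 1 and 3) and 0.360 (arrays 2 and 3), genes not being independent replicates. The 4506 genes measured in both biological replicates were tested with limma, and a gene was called at a Benjamini-Hochberg adjusted p under 0.05.

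A giant colony on glycerol, a carbon source that is respired and not fermented, builds up layers and zones of cells with different access to nutrients. Structured yeast colonies have an extracellular matrix, and their cells adhere to each other through surface proteins such as the adhesin Flo11p. Smooth colonies of domesticated strains lack much of this architecture.

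FLO11 itself was measured only on array 3, where its signal was 2769 in BR-RF and 4081.5 in BR-S before normalisation and its log2 ratio was -0.04. It was therefore not tested, and this 1 reading does not settle whether FLO11 differed. In the paper's northern blot FLO11 mRNA was recovered in BR-RF and low in BR-S, and Flo11p was recovered in BR-RF as well. Of 14 markers of colony and cell state 7 were tested and 1 was called. SPS100, a gene of spore wall maturation, was lower in BR-RF on arrays 1, 2 and 3 (-1.46, -0.68 and -1.47; estimate -1.27 ± 0.19 SE, adjusted p = 0.00385). The mating-type switching gene HO (0.22, adjusted p = 0.606) and ICL1, which marks growth on a non-fermentable carbon source (0.23, adjusted p = 0.657), did not pass the test. The stationary-phase gene HSP12 took opposite signs on the dye-swapped arrays, with -1.30 on array 1, and was at 0.23 on array 3. ADH2, another gene of respiratory growth, also disagreed between arrays (-0.59, 1.07 and -1.43), while the stationary-phase gene SSA3 was below 0 on each (-0.31, -1.07 and -1.22) with an adjusted p of 0.115.

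In all, 134 genes were higher in BR-RF (2.97% of those tested) and 82 were lower (1.82%). The 134 higher genes comprised 52 of the left arm of chromosome XV, 25 of chromosome IX, 13 reading frames with the arrangement of Ty retrotransposon genes, the 4 ASP3 copies and 40 others, of which 3 lay in a stretch of chromosome VIII and 1 in a stretch of chromosome XII. Of the 82 lower genes, 19 lay in that stretch of chromosome XII and 63 elsewhere. The change was over 2-fold in 60 of the higher and 31 of the lower genes, and the sign was the same on every array that measured the gene for all of them. These counts leaned on array 3, without which 66 genes were higher and 29 lower. Fitted on the arrays of this comparison alone, 64 were higher and 46 lower.

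**Figure D1:**
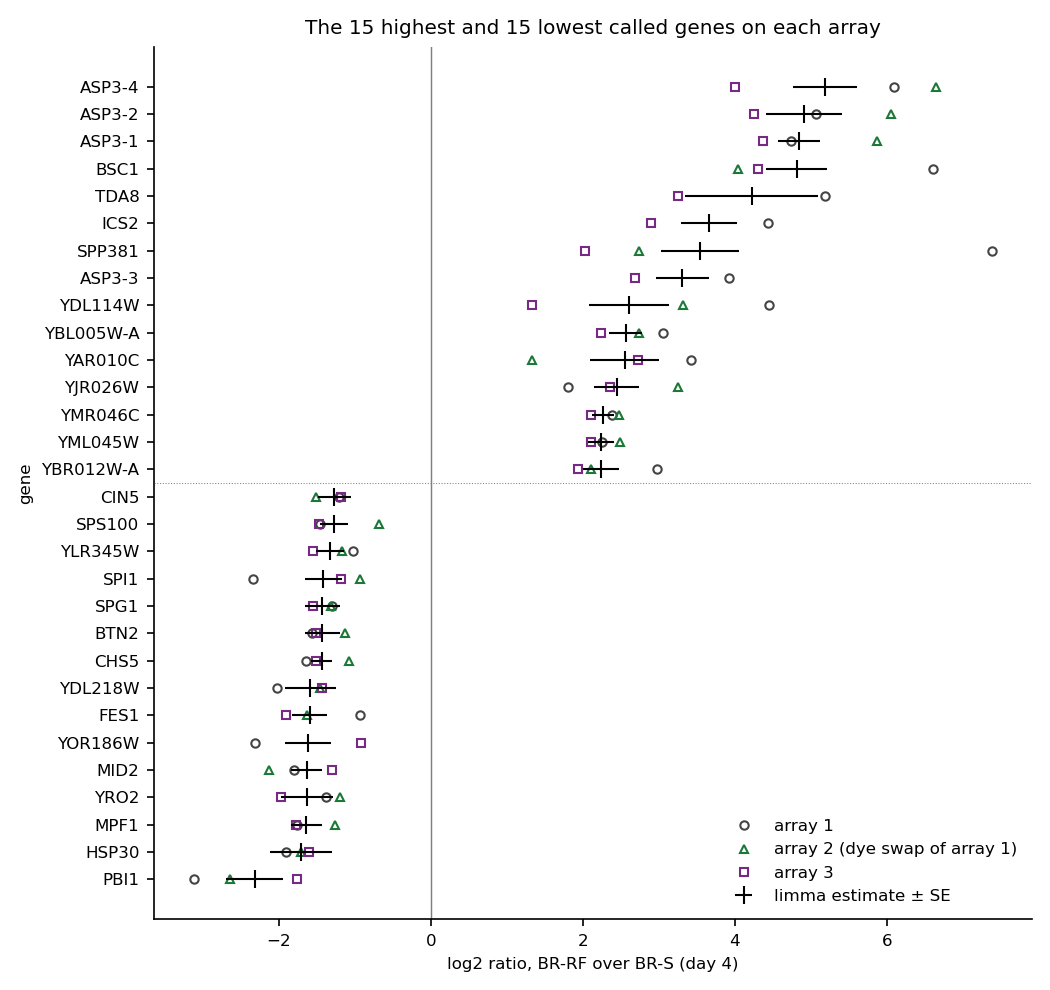
Day-4 log2 ratio of BR-RF over BR-S (x axis) of the 15 called genes with the highest and the 15 with the lowest estimates (y axis), with a symbol for each array and the limma estimate with its SE in black. All points of a gene lie on the same side of 0, from 6.65 for ASP3-4 on array 2 to -3.12 for PBI1 on array 1, and the arrays differ most for SPP381 (7.39, 2.74 and 2.03).

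The highest estimates included those of cell wall asparaginase II, which releases ammonium from asparagine outside the cell and is encoded by 4 neighbouring, nearly identical copies on chromosome XII. ASP3-1 gave raw signals of 35507, 44368 and 46188 in BR-RF on arrays 1, 2 and 3, against 1471, 543.5 and 3171.5 in BR-S. BR-RF was brighter on every array, and the log2 ratios were 4.74, 5.87 and 4.38 (estimate 4.84 ± 0.28 SE, adjusted p = 1.59e-05). ASP3-2 (4.91) and ASP3-4 (5.19) were similar. For these 3 copies BR-S was above background on only 1 of the 3 arrays, so the size of the ratios is poorly determined. When the background-subtracted signal had to exceed the local background in both dyes, no ASP3 copy was tested. ASP3-3, which was not above background in BR-S, was at least 7.89-fold higher, a bound set by the lowest signal that was above background. Probes for such copies read a common signal and do not count as 4 findings. The fifth member of the list, the other asparaginase, had a ratio of 0.25 and was not called.

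BSC1, a gene related in sequence to FLO11, had signals of 10606.5, 11992 and 16577.5 in BR-RF. In BR-S it was not above background on any array, and BR-RF was at least 11.2-fold higher (adjusted p = 0.000133). It was the only called gene of the 5 tested adhesin genes and FLO11 relatives. TDA8 and ICS2, likewise not above background in BR-S and missing on array 2, were at least 2.66-fold and at least 2.63-fold higher.

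Several genes of unrelated function were also higher in BR-RF. SPP381, a splicing factor of the tri-snRNP, was higher on every array but by very different amounts (7.39, 2.74 and 2.03), and its BR-S signal on array 1 was only 20. YDL114W had ratios of 4.46, 3.32 and 1.33 (adjusted p = 0.0234). DUS4, which makes dihydrouridine in tRNA, was 1.23, 3.37 and 1.49 above BR-S on the log2 scale (estimate 1.90 ± 0.41 SE). A list of 21 tested genes was drawn up around SPP381 and DUS4 from their partner genes of splicing and tRNA modification. These 2 were its only called genes, which is no result about those pathways, and its median was 0.08. SHE1, a microtubule-associated protein, was also higher (2.39, 1.88 and 0.69).

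Among the surface and transport genes, MNN9, a subunit of the Golgi complex that elongates the mannan of wall glycoproteins, was 4 times as high in BR-RF by its estimate of 2.00 ± 0.21 SE. Its ratios were 2.40, 2.02 and 1.80. PDR12, the pump that exports weak organic acids, had ratios of 1.86, 1.45 and 1.55 (1.60 ± 0.17 SE, adjusted p = 0.000477). VBA3, a vacuolar transporter of basic amino acids, had ratios of 2.80, 1.37 and 1.87. In the list of multidrug and organic acid transporters these were the 2 higher genes of 19 (10.5%, against 2.97% of all genes tested). The polyamine exporter TPO2 was lower (-0.90, -1.49 and -0.51) and the median of the list was -0.01. BST1, which acts on GPI anchors in the endoplasmic reticulum, was higher by 0.91, and SFG1, a regulator of pseudohyphal growth, by 1.11. SFG1 had ratios of 1.05, 1.22 and 1.08 and was the 1 called gene of 21 tested transcription factors of filamentous growth, with a median of 0.02.

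A group of reading frames stood out on several chromosomes. They were found in the reference annotation as frames of 1200 to 1400 bases nested in a frame of at least 4500 bases with a common end, which is the arrangement of the GAG and GAG-POL frames of Ty retrotransposons, elements that copy themselves through RNA. Of 8 short frames tested 7 were higher in BR-RF, with a median of 2.22, and of 11 long frames 6 were higher, with a median of 0.93, against -0.01 over all genes tested. YMR046C had signals of 11724.5, 24328 and 24660 in BR-RF and of 2420.5, 3203 and 8144 in BR-S, and ratios of 2.39, 2.47 and 2.11 (2.27 ± 0.14 SE, adjusted p = 2.29e-05). YML045W (2.26, 2.49 and 2.11) and YML040W (2.24, 2.38 and 2.10) were almost as even over the arrays, and YBL005W-A was the highest short frame at 2.56. YJR026W (1.81, 3.26 and 2.36) and YJR028W (1.48, 2.98 and 2.10) spread more. YAR010C (2.55), YHR214C-B (1.58) and YAR009C, which was at least 2.62-fold higher, were called too but did not meet the criterion of arrangement. Copies of such elements are near-identical and the probes cannot tell them apart, so that these are readings of a few families and not of 19 genes. The short frames had a median of 2.77 where BR-F was compared with BR-S on day 4, of 1.03 in the BR-RF and BR-S pair on day 7, and of -0.37 where BR-RF was set against BR-F on day 4. The comparisons share strains.

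**Figure D2:**
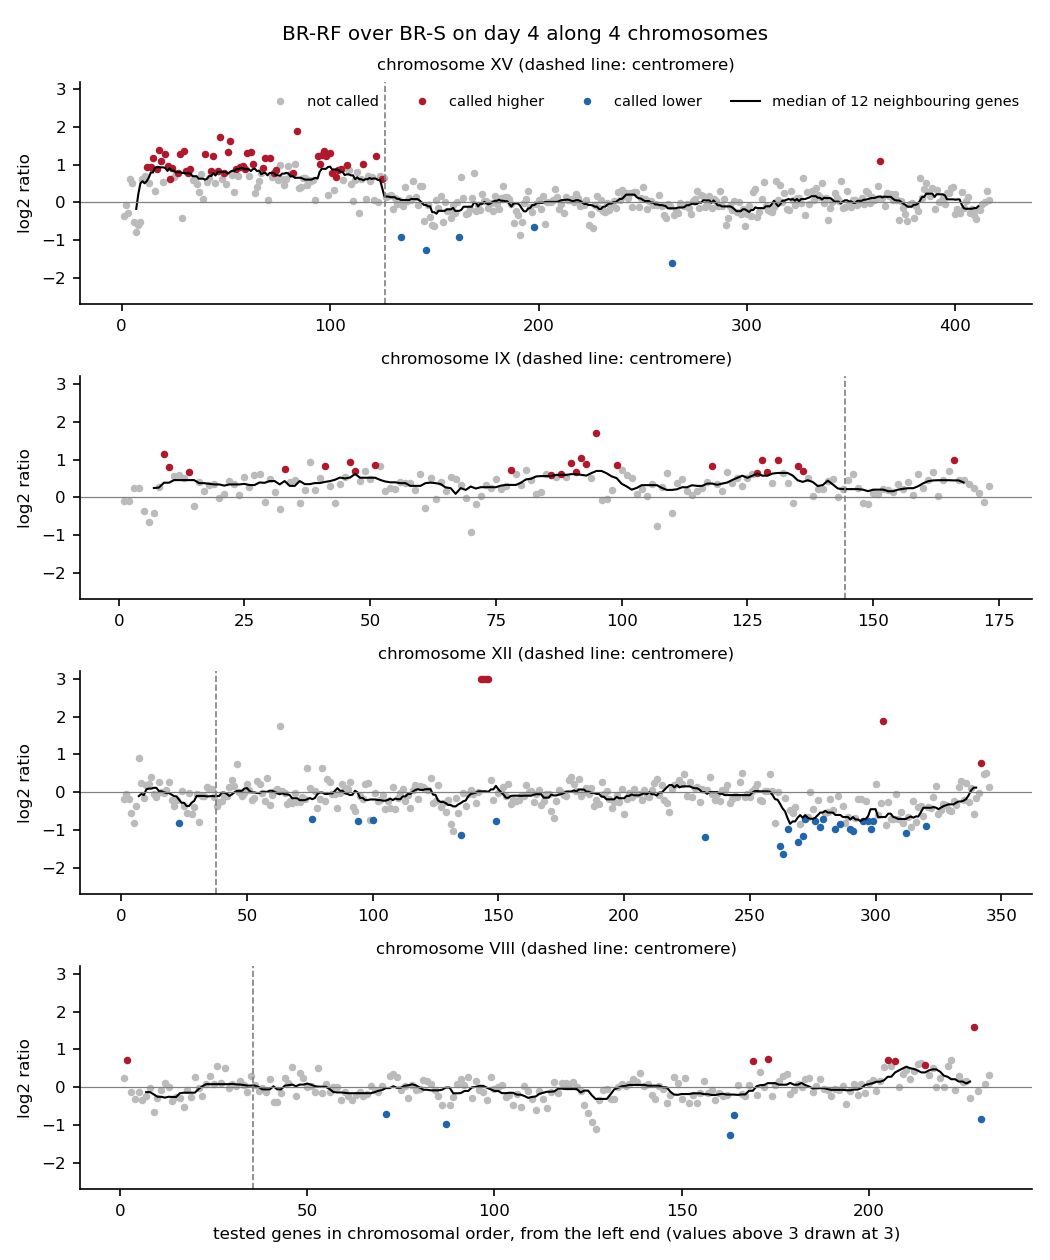
Log2 ratio of BR-RF to BR-S (y axis) of every tested gene in chromosomal order (x axis, gene number from the left end) on chromosomes XV, IX, XII and VIII, with called genes in colour and the median of 12 neighbouring genes as a line. The line stays above 0 over most of the left arm of XV and over IX, and drops below 0 in a stretch near the right end of XII.

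Genes of the left arm of chromosome XV were higher in BR-RF almost throughout the arm, whatever their function. Of 126 genes tested 52 were called higher and 0 lower, 116 had positive ratios, and the median was 0.70. It was 0.72, 0.93 and 0.58 on arrays 1, 2 and 3. The right arm, with 290 genes tested, had a median of 0.00, with 1 gene higher and 5 lower. The arm was raised from YOL153C to YOL001W, the last gene before the centromere, with a median of 0.75 over 117 genes. The 9 tested genes outside of it, from YOL165C to YOL154W near the chromosome end, had a median of -0.36 and none was called. The first 30 tested genes on the other side of the centromere, from YOR001W to YOR040W, had a median of 0.03. These borders were drawn after the values were seen and were given no test.

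Within the arm the highest called genes belonged to different pathways. ARG1, which makes argininosuccinate in arginine synthesis, had ratios of 2.55, 2.08 and 1.44 (1.88 ± 0.26 SE), and IZH4, a membrane protein linked to zinc metabolism, had 2.33, 1.69 and 1.22. NOP12, needed for maturation of the large ribosomal subunit (1.40, 1.44 and 1.29), RIB4 of riboflavin synthesis (1.62, 1.25 and 1.33) and PRE6, a subunit of the proteasome core (1.42, 1.58 and 1.14), were more even. RIB4 had the smallest SE of these, at 1.39 ± 0.13. YOL107W (1.73), RPL25 (1.37), ARG8 (1.28), RPS15 (1.24), SHR5 (1.22), BRX1 (1.17), HTZ1 (1.01), PEX11 (0.94), IRA2 (0.90) and INO4 (0.82) were called as well. They encode, in this order, an uncharacterized protein, a ribosomal protein, a mitochondrial arginine enzyme, a ribosomal protein, a palmitoyltransferase subunit, a ribosome assembly factor, the histone variant H2A.Z, a peroxisome protein, a negative regulator of Ras and a regulator of phospholipid synthesis. Of the 6 genes that the study took for qPCR, PRE6 and SHR5 of the left arm were called and MAM3 was measured only on array 3 (1.57). TOA1 (-0.09) and MPD1 (0.12) of the right arm were not called, and CLP1 was read only on array 3 (0.37). The study had picked the left-arm genes for raised expression in BR-RF over BR-S and the right-arm genes for no significant difference. Their calls were therefore largely fixed by that choice and are no separate evidence. The qPCR itself measured genomic copy number, which the paper reports to differ significantly between the arms in BR-RF relative to BR-S.

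Chromosome IX was higher along both arms by a smaller amount. Of 173 genes tested 25 were called higher and 0 lower, 149 had positive ratios, and the median was 0.37 (0.46, 0.49 and 0.27 on arrays 1, 2 and 3). SUC2, which encodes invertase, had ratios of 1.86, 0.91 and 0.92 (1.15 ± 0.24 SE, adjusted p = 0.0243). LYS1 (1.66, 1.03 and 0.62) of lysine synthesis, HIS5 (0.69) and HIS6 (0.65) of histidine synthesis, GPP1 (0.85) of glycerol production and FAA3 (0.71), which activates fatty acids, were called too. YIL060W was the highest at 1.71, with 1.49, 1.92 and 1.71 on the arrays.

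A stretch of chromosome XII, from YLR330W to YLR449W, was lower in BR-RF. Of its 71 tested genes 68 had negative ratios, 19 were called lower and 1 was called higher, which was DUS4. The median was -0.56 over the stretch (-0.62, -0.79 and -0.36 on arrays 1, 2 and 3) and -0.04 over the other 237 tested genes of the arm. MID2, a plasma membrane sensor of cell wall stress, had ratios of -1.79, -2.13 and -1.30 (-1.63 ± 0.20 SE, adjusted p = 0.0014). CHS5, needed for the export of chitin synthase III to the surface, had -1.64, -1.08 and -1.51 (-1.43 ± 0.14 SE). The wall glycoprotein gene CCW14 (-0.97), ATG33 of mitophagy (-0.93), IMD3 of guanine nucleotide synthesis (-0.89), ELO3 of fatty acid elongation (-0.85), COX8 of cytochrome c oxidase (-0.76), ADE13 of purine synthesis (-0.71) and the sphingolipid regulator ORM2 (-0.70) were also lower. In a shorter stretch of chromosome VIII, from YHR190W to YHR208W, 18 of 19 tested genes had positive ratios and the median was 0.51, against -0.07 in the rest of the arm. Its called genes were CTF8 of sister chromatid cohesion (0.73), EGD2 of the nascent polypeptide-associated complex (0.68) and PPX1, an exopolyphosphatase (0.60). Both stretches were chosen after the values were seen.

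The other 28 chromosome arms had medians from -0.13 to 0.20. When the tested genes were cut into runs of 12 neighbours, the 9 runs of the raised stretch of XV had medians of 0.60 to 0.93, the 14 runs of IX 0.09 to 0.63 and the 5 runs of the XII stretch -0.71 to -0.41. The 339 full runs outside of these and of the run on VIII lay between -0.34 and 0.40. That range leaves out stretches chosen after the values were seen, so it is no independent comparison. It also leaves out the shorter runs at chromosome ends, among them YBR296C to YBR302C on chromosome II (6 genes, median -0.60). For BR-F against BR-S on day 4 the medians were -0.01 over the raised stretch of XV, 0.05 over IX, -0.02 over the XII stretch and -0.14 over that of VIII. On day 7 the BR-RF to BR-S medians were 0.59, 0.37, -0.48 and 0.18. The latter comparison has the same strains as that of day 4.

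**Figure D3:**
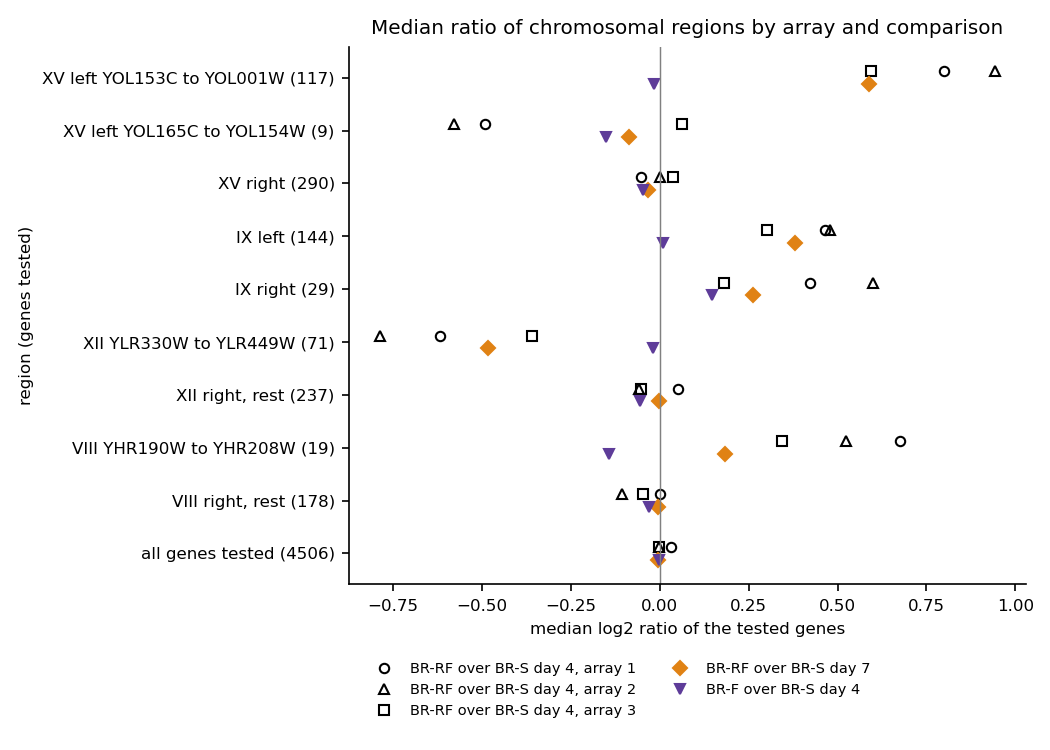
Median log2 ratio (x axis) of the tested genes of each chromosomal region (y axis, number of genes in brackets), with open symbols for the 3 arrays of BR-RF over BR-S at day 4 and filled symbols for day 7 of the same strains and for BR-F against BR-S. The 3 arrays lie above 0 for the inner left arm of XV, IX and the VIII stretch and below 0 for the XII stretch, where BR-F over BR-S stays between -0.14 and 0.15.

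Heat shock chaperones were the group with the most lower calls. Chaperones refold or disaggregate proteins damaged by heat, ethanol or ageing. Of 39 tested chaperones and co-chaperones 9 were lower in BR-RF (23.1%, against 1.82% of all genes tested) and 0 higher. Negative ratios were found in 35, and the median was -0.51 (-0.35, -0.32 and -0.61 on arrays 1, 2 and 3) against -0.01 over all genes tested. HSP78, the mitochondrial disaggregase, had signals of 3326, 6400 and 6547 in BR-RF against 6511, 11687.5 and 24917.5 in BR-S, with ratios of -0.87, -1.34 and -1.42 (-1.26 ± 0.16 SE, adjusted p = 0.0014). BR-S was higher on all 3 arrays. FES1, a nucleotide exchange factor of Hsp70 (-0.93, -1.63 and -1.90), BTN2, which sorts misfolded proteins (-1.56, -1.13 and -1.51), and HSP30 of the plasma membrane (-1.90, -1.71 and -1.60) were lower too. The J protein APJ1 (-1.03), the cytosolic disaggregase HSP104 (-0.83) and the Hsp70 gene SSA1 (-0.79) followed, of which SSA1 varied most between arrays (-1.85, -0.10 and -0.61). The call of SSA1 was lost in 11 of 14 alternatives, the authors' LOWESS ratios, the dye term and the replicate block among them, with estimates from -1.23 to -0.31. Without array 3 only 1 member was called, with a median of -0.33. The wild strain BR-F also had 9 lower members against BR-S on day 4 (there 1.72% of all tested genes were lower and 2.97% higher), and BR-RF had 17 on day 7 (8.61% of all tested genes).

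Of 28 tested hexose transporters and glucose sensing genes, 5 were lower in BR-RF (17.9%, against 1.82% of all genes tested) and 0 higher. Negative ratios were found in 25, and the median was -0.67. The median was near 0 on array 1 (-0.11) and lower on arrays 2 and 3 (-0.93 and -0.75). HXT10 had ratios of -1.05, -1.03 and -1.24, HXT15 -0.62, -1.27 and -0.78, and the low-affinity glucose transporter HXT3 -0.15, -1.11 and -1.04. STD1, a regulator of the glucose-sensing pathway, was lower on every array, with an estimate of -0.93 ± 0.18 SE. The transporters are close relatives whose probes may read each other. Without array 3 none of the list was called, and without array 1 there were 10 calls. When BR-F was compared with BR-S on day 4 the list had 0 calls and a median of 0.12.

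Of 127 tested ribosomal protein genes, 8 were called higher (6.3%, against 2.97% of all genes tested) and 0 lower. Positive ratios were found in 105, and the median was 0.26 (0.25, 0.12 and 0.33 on arrays 1, 2 and 3). Chromosome XV left held 2 of the 8, RPL25 and RPS15, and IX held 3. The other 3 were RPS4A (1.26, 0.48 and 0.86), RPP2B (1.08, 0.37 and 1.00) and RPS26A (0.63, 0.56 and 0.71). Without array 3, or fitted on the arrays of this comparison alone, only 1 was called. Outside chromosome IX and the left arm of XV 3 of 119 were called higher, a share near that of all genes tested there (57 of 4207), and the median was 0.25. In the comparison of BR-F with BR-S on day 4 it was -0.36 over the list. Of the genes of ribosome synthesis 3 of 74 were higher, NOP12, BRX1 and NOP8, all on the left arm of XV, and the median was 0.07. None of the 64 tested mitochondrial ribosomal protein genes was called by limma.

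**Figure D4:**
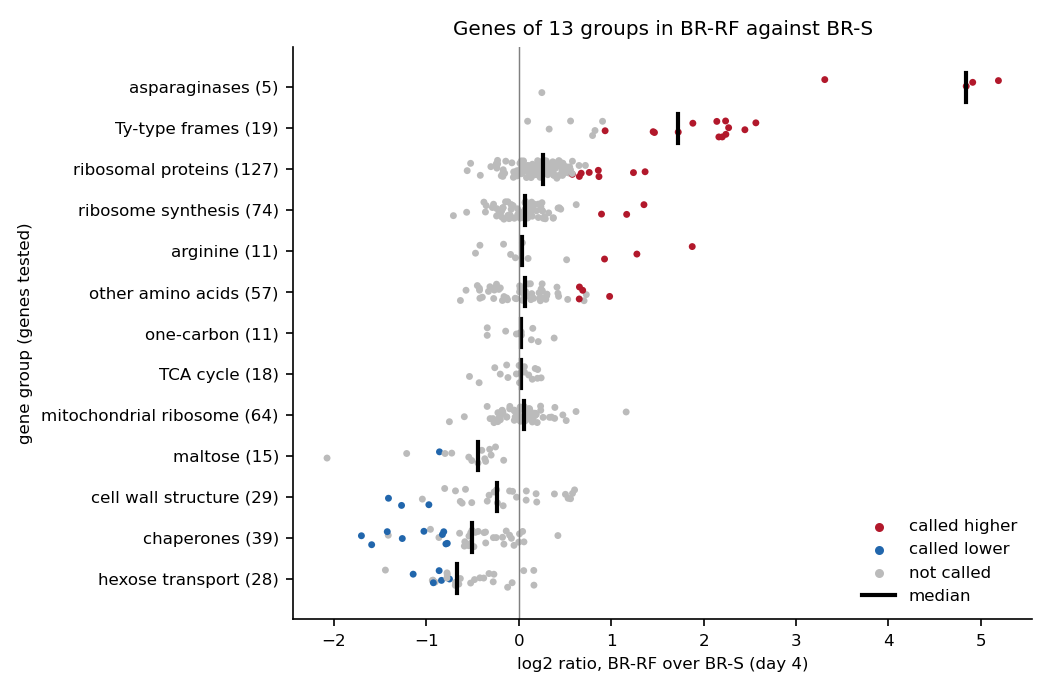
Log2 ratio of BR-RF over BR-S (x axis) of each tested gene of 13 groups (y axis, number of genes in brackets), coloured by call, with the group median as a black bar. The asparaginase and Ty-type groups lie to the right, chaperones (median -0.51) and hexose transport (-0.67) to the left, and the TCA cycle and one-carbon groups around 0 with no called gene.

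Calls in amino acid synthesis came from a few genes, most of them on the raised chromosomes. In the arginine list 3 of 11 tested genes were higher, ARG1, ARG8 and ARG3, of which the first 2 lie on XV left, and the median was 0.04. ARG3, the ornithine carbamoyltransferase on chromosome X, had ratios of 0.85, 0.90 and 0.98 (0.93 ± 0.17 SE, adjusted p = 0.0122). Of 57 genes of other amino acids 4 were higher (7.02%, against 2.97% of all genes tested), and the median was 0.06. They were LYS1, HIS5 and HIS6 on chromosome IX and LEU2 of leucine synthesis (0.73, 0.61 and 0.64). Outside chromosome IX and the left arm of XV, 1 of 52 was higher. Without array 3 or with a dye term 1 gene of these 57 was called, and with only the arrays compared 0 were. PUT1, the first enzyme of proline breakdown, was lower (-1.15, -0.93 and -1.22).

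Of cell wall structure genes 3 of 29 were lower (10.3%, against 1.82% of all genes tested) and 0 higher, with a median of -0.23. They were SPI1, a GPI-anchored wall protein (-2.34, -0.93 and -1.19), SPS100 and CCW14, which lies in the lower stretch of chromosome XII. In the cell wall integrity pathway 2 of 18 were lower (11.1%), with a median of -0.15. They were MID2 of the lower stretch of chromosome XII and RLM1, the transcription factor at the end of the pathway (-0.97, -0.59 and -0.79). CTS1, the chitinase that separates mother and daughter cells, was lower as well (-1.29, -0.99 and -1.22). In purine synthesis 3 of 21 tested genes were lower (14.3%), IMD2 (-1.05, -1.06 and -0.63), IMD3 and ADE13, and PRS5 of chromosome XV was higher. IMD3 and ADE13 lie in the lower stretch of chromosome XII. IMD2 and IMD3 are close copies.

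Genes of oxidative and general stress went both ways. OYE3, an NADPH oxidoreductase (-0.37, -1.23 and -1.44), and the peroxidase GPX1 (-0.67, -1.09 and -0.73) were lower and DOT5, a nuclear peroxidase on chromosome IX, was higher (0.73, 1.17 and 0.69), of 32 tested with a median of 0.02. These shares were 6.25% lower and 3.1% higher, against 1.82% and 2.97% of all genes tested. SPG1 (-1.30, -1.31 and -1.54), needed for survival in stationary phase, and the transcription factor USV1 (-0.81, -0.84 and -0.86) were lower, while DDR48, induced by DNA damage, was higher (1.61, 0.95 and 0.53). The lowest gene of all was PBI1, with signals of 1999.5, 776.5 and 2783.5 in BR-RF against 18730, 2869 and 13254.5 in BR-S, and ratios of -3.12, -2.64 and -1.76 (-2.32 ± 0.37 SE, adjusted p = 0.00674). The membrane proteins YRO2 (-1.63) and MRH1 (-1.08), the bZIP factor CIN5 (-1.27), the mitochondrial lactate dehydrogenase DLD1 (-0.98) and LST8 of the TOR complexes (-1.15) were lower too. No gene was called by limma among 18 TCA cycle, 15 ATP synthase, 27 iron, 22 mating and 11 one-carbon genes, although at an unadjusted p under 0.05 there were 402 higher and 372 lower genes over the whole table.

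The ratio over BR-S was then compared between the feral and the wild strain, to show where BR-RF and BR-F depart from the smooth strain by different amounts. BR-RF had the higher ratio for 36 of 4157 genes (0.866%) and the lower for 35 (0.842%). Of the 36, 23 lie on the left arm of XV and 7 on chromosome IX. Among them were RPL25 (1.37 in BR-RF and -0.69 in BR-F), IZH4 (1.61 and -0.21), SUC2 (1.15 and -0.66) and NOP12 (1.35 and -0.34). The lower side was led by genes for use of maltose and isomaltose. MAL32, a maltase, was at -2.08 in BR-RF and 2.66 in BR-F, with a difference of -4.73 (adjusted p = 0.0469), and neither value alone passed the test. MPH2, a permease of alpha-glucosides, was at -0.86 and 2.07, and IMA2, an isomaltase, at -0.51 and 2.00. Of 15 tested genes of the maltose list 7 had a significantly lower ratio in BR-RF than in BR-F, and the median difference was -1.85. Against BR-S itself none of the 15 was positive in BR-RF, the median was -0.44 and only MPH2 was called. These genes are close copies near chromosome ends, and their probes may read each other. FIT1, a wall mannoprotein that helps to retain iron, was at -0.03 in BR-RF and 2.48 in BR-F, and JLP1 of sulfonate use at 0.90 and 3.24. With a term for dye in the fit 0 genes remained on the higher and 2 on the lower side, and when only the arrays compared were fitted 0 and 1 did.

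**Figure D5:**
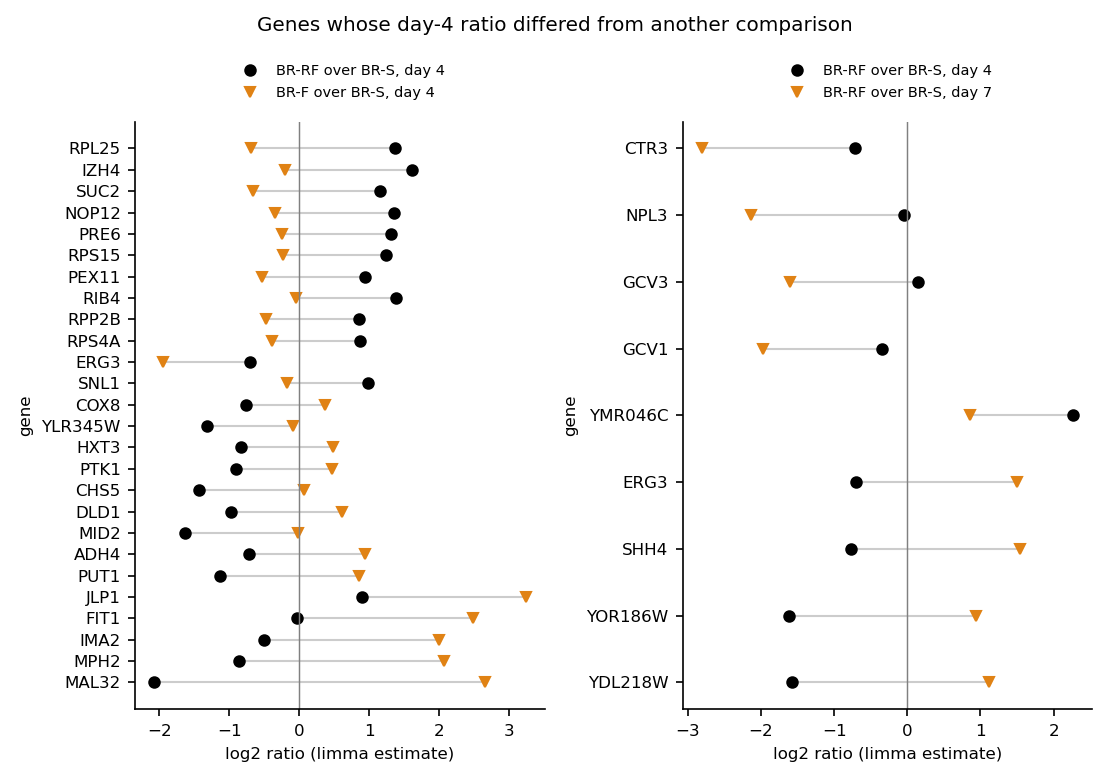
Limma estimates of the log2 ratio (x axis) of the named genes (y axis) whose day-4 ratio of BR-RF over BR-S (black) differed from that of BR-F over BR-S (left panel, orange) or from the day-7 ratio of the same strains (right panel, orange). Maltose genes MAL32, MPH2 and IMA2 lie below 0 in BR-RF and at 2.00 to 2.66 in BR-F, and RPL25, IZH4, SUC2 and NOP12 lie above 0 in BR-RF and below 0 in BR-F.

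The difference between BR-RF and BR-S on day 4 was also set against that on day 7. Only 7 of 4262 genes had a higher ratio on day 4 (0.164%) and 8 a lower one (0.188%). YDL218W changed from -1.58 on day 4 to 1.11 on day 7, YOR186W from -1.62 to 0.94, SHH4, a relative of a succinate dehydrogenase subunit, from -0.77 to 1.54, and the sterol desaturase gene ERG3, at -0.70 on day 4, differed by -2.19 from day 7. The other way round, the copper transporter gene CTR3 was at -0.71 on day 4 and -2.81 on day 7, and NPL3, an mRNA-binding protein, at -0.05 and -2.13. The glycine decarboxylase genes GCV1 (-0.34 and -1.98) and GCV3 (0.15 and -1.60) were called on day 7 and not on day 4. The frame YMR046C was called on both days, at 2.27 and 0.86. Array 3 had opposite dyes on the 2 days, and with a term for dye 0 and 2 of these differences were called.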

How the data were processed

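The authors scanned the arrays and measured spots with TIGR Spotfinder. The deposited intensity values are medians per spot and dye, with local background subtracted per the file headers. The deposited table of log2 ratios, which the authors had normalised by LOWESS in MIDAS, served as an alternative. No genome build is named in the sources used here, and the reference table gave names and gene order.

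Spots flagged as poor or with an intensity of 0 or less were left out, log2 ratios were normalised by loess (span 0.3, spots without a gene name given no weight) and the spots for each gene were averaged. The first 2 arrays were combined into biological replicate 1, as the deposited design text describes, although the study calls the 3 arrays biological replicates. The 12 biological replicates of the 6 strain and day pairs entered 1 model (lmFit and eBayes of limma 3.58.1, under R 4.3.3), which left 6 residual and 4.64 prior degrees of freedom, and tests were two-sided. Differences between ratios were contrasts of this fit. A further 749 genes were measured in 1 biological replicate only and not tested. Nothing states that the replicates came from separate platings, so p-values measure the spread between these samples. A strain counted as not above background where its spot did not exceed the background by 2.6 SD. The alternative termed signal over background was stricter. It asked that the background-subtracted signal exceed the local background itself in both dyes, which left 2858 tested genes.

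Genes are named by rule: FLO11, the 15 highest and 15 lowest called genes, up to 4 called members (or the 2 with the smallest p) of each list and region, the qPCR genes and the 4 largest differences in each direction. The markers HSP12, ADH2, ICL1, HO and SSA3 were named beside them as cell state markers. Members and the 56 lists were chosen with earlier results of these data known. In simulated data for this comparison (4506 genes tested) 20% of 50 changes of 0.585 log2, 78% of 50 of 1 and 100% of those of 2 and 3 were called. The number of arrays limits the precision. Figures were drawn with matplotlib 3.10.9 in Python 3.11.15. Alternatives were another normalisation, filter, offset and design, and leaving out each array.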

Additional observations from a re-analysis of the deposited data

Results flagged for a closer look

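These are the named genes for which the test of a difference between strains or days passed at an adjusted p under 0.05. On day 4 the ratio over BR-S was larger for BR-RF than for BR-F (difference on the log2 scale) in RPL25 (2.06), IZH4 (1.83), SUC2 (1.81), NOP12 (1.70), PRE6 (1.57), RPS15 (1.47), PEX11 (1.47), RIB4 (1.43), RPP2B (1.34), RPS4A (1.25), ERG3 (1.25) and SNL1 (1.17). ERG3 was below BR-S in both strains, at -0.70 in BR-RF and -1.95 in BR-F. ERG3, RPP2B and RPS4A lie outside chromosomes IX and XV.

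It was smaller for BR-RF than for BR-F in MAL32 (-4.73), MPH2 (-2.93), IMA2 (-2.51), FIT1 (-2.51), JLP1 (-2.34), PUT1 (-1.98), ADH4 (-1.66), MID2 (-1.62), DLD1 (-1.59), CHS5 (-1.49), PTK1 (-1.37), HXT3 (-1.32), YLR345W (-1.23) and COX8 (-1.13). MID2, CHS5, YLR345W and COX8 belong to the lower stretch of chromosome XII.

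Between days the ratio of BR-RF over BR-S was lower on day 4 than on day 7 for YDL218W (-2.69), YOR186W (-2.56), SHH4 (-2.31) and ERG3 (-2.19). It was higher on day 4 for CTR3 (2.10), NPL3 (2.08), GCV3 (1.75), GCV1 (1.64) and YMR046C (1.41).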

How the results depend on the processing

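Only 3 arrays carry this comparison, array 3 has no dye swap, and calls rest on a spread shared with the other pairs of strains. No named gene changed sign while called. Of 139 called named genes, 51 kept their call without array 3, 76 when only the arrays compared were fitted and 133 with the authors' LOWESS ratios. MNN9, CHS5, MID2, NOP12, RIB4 and HSP78 kept theirs in every alternative limma fit that gave them a value, ASP3-1 in those other than signal over background. The causes were not tested.

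The 134 higher and 82 lower calls became 75 higher with signal over background asked of both dyes (fewer genes tested), 137 lower with print-tip loess, 215 and 144 with the 3 arrays as separate replicates, 64 and 46 with only the arrays compared, and 230 and 208 at 1.5-fold and an unadjusted p. A t-test of each gene over the biological replicates was also run, which is not the study's own selection by fold change and ANOVA. It gave 53 and 35 for a change of at least 1.5-fold with p below 0.05 before adjustment. After Benjamini-Hochberg it gave 0 and 0. Over the 3 arrays, an alternative chosen after seeing the data, it gave 134 and 94 at those limits and 0 and 0 after adjustment. Leaving out an array gave 66 to 137 higher and 29 to 93 lower.

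Against BR-F the counts of 36 and 35 became 18 and 18 with median centring, 62 lower with print-tip loess, 22 and 23 with signal over background, 75 higher with separate arrays, 0 and 1 with only the arrays compared, 0 and 2 with a dye term and 239 and 233 at 1.5-fold, with 8 to 39 and 7 to 33 without an array. Against day 7 the counts of 7 and 8 became 0 and 2 with median centring, 35 and 20 with print-tip loess, 13 and 16 with the authors' ratios, 16 higher with signal over background, 48 and 30 with separate arrays, 16 and 13 with only the arrays compared, 0 and 2 with a dye term and 307 and 257 at 1.5-fold, with 2 to 8 and 2 to 13 without an array.

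The main fit treated equally numbered replicates of different comparisons as unpaired. Their deviations correlated across genes at -0.54 to 0.32 over 15 pairs of comparisons, so that independence of the replicates was not established. With the replicate block the calls were 100 higher and 63 lower, 16 and 13 against BR-F and 0 and 2 against day 7.

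The median of the right arm of chromosome XII, -0.12, was -0.14 with median centring or the authors' ratios, -0.10 with print-tip loess, signal over background or a loess fitted without the shifted regions (chosen after seeing the data), -0.12 with separate arrays and -0.14 to -0.11 without an array. The medians of XV left, IX and the stretches of XII and VIII kept their sign in every alternative. Without an array they were 0.66 to 0.79, 0.36 to 0.44, -0.71 to -0.56 and 0.46 to 0.62. With print-tip loess they were 0.67, 0.33, -0.48 and 0.38.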

Other observations

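Genes next to the chromosome ends were called in both directions between BR-RF and BR-S on day 4. Of the outermost 10 tested genes of every end, 320 in all, 14 were higher and 6 lower, with a median of -0.06. These were 4.4% and 1.9%, against 2.97% and 1.82% of all genes tested, and 3 of the 14 lay on chromosome IX. In BR-F over BR-S on the same day 38 of the 320 were higher and 1 lower, with a median of 0.21. Over all genes tested there, 2.97% were higher and 1.72% lower. Among those named, YHL049C (1.02, 0.88 and 0.50), YEL075C (1.37, 0.55 and 0.57) and YFL064C (0.92, 0.74 and 0.50) were higher in BR-RF and YAR068W (-0.90, -1.59 and -0.86) was lower. These higher genes all lost their call with median centring, with only the arrays compared and without array 3. YAR068W kept its call in every alternative limma fit.

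Chromosome I read differently on the dye-swapped arrays. The median of the 52 tested genes of its left arm was 0.36 on array 1, -0.47 on array 2 and 0.17 on array 3, and that of the 19 of its right arm was 0.78, -0.16 and 0.27. The estimates combined to 0.05 and 0.20.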
